A study of Mus musculus with 6 samples.

Results

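miR-132 and miR-212 are a pair of microRNAs made from neighbouring hairpins, and both arms of each hairpin were counted here in peritubular myoid cells, the contractile cells that wrap the seminiferous tubules of the testis. The 4 arms (mmu-miR-132-3p, mmu-miR-132-5p, mmu-miR-212-3p and mmu-miR-212-5p) were chosen by name, not by their values, from 1573 rows of known mouse miRNAs. Earlier results of these data were known when the choice was made. All 4 were found and passed the filter on low counts. The cells were primary cultures from C57BL/6J mice, grown in a serum-containing medium. One group was exposed to 50 nM endothelin-1 (ET1) for 5 min (n = 3 libraries). The other group received no ET1 (n = 3 libraries). Whether the 3 libraries of a group stem from different animals or cultures is not stated in the labels; a p-value therefore measures spread between libraries that may be purely technical.

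The pair is best known as a CREB target: CREB, a transcription factor activated by calcium and cyclic AMP signals, drives a non-coding primary transcript that holds both hairpins. Drosha and Dicer then cut each hairpin to a duplex whose arms are the 5p and the 3p miRNA, so that mature miRNA follows transcription with a delay. Induction by endothelin and angiotensin, whose receptors couple to Gq and calcium release, has been described over hours in cells of the heart and vessels, and the 3p arms have been studied most, in neurons, in cardiac growth and in vessels. The comparison asks what 5 min of ET1 does to their level.

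On the mouse build GRCm38, Mir212 lies on the plus strand of chromosome 11 from 75173388 to 75173478 and Mir132 from 75173682 to 75173747, with 203 bases between them. GENCODE M21 places both in the first intron of the non-coding gene 1700016P03Rik on the same strand, between the exon that ends at 75172597 and the exon that starts at 75173978. The hairpins are shown because every count below is a count of tags from 1 of their arms. They are given 5′ to 3′ from RefSeq (GRCm38.p6) with the arms in capitals, the 5p arm first.
Mir212: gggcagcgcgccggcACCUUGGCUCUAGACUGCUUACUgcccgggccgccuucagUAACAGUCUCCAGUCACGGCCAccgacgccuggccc
Mir132: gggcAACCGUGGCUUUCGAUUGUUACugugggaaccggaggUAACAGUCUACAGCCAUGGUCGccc

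The seed, bases 2 to 8 of a miRNA, sets most of its target choice, and it groups the 4 arms into 1 pair and 2 singles. The mature sequences follow with the seed in capitals.
miR-212-3p: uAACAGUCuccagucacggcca
miR-132-3p: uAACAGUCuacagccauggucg
miR-132-5p: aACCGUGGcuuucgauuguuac
miR-212-5p: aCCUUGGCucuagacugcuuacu
The 3p arms share the seed AACAGUC, which no other of the 1679 mature mouse miRNAs in the RefSeq table carries. They are identical over bases 1 to 9 and at 17 of 22 positions. Counted from 1 at the 5′ end, with the base of miR-132-3p first, they differ at A10C, C14U, U17C, U20C and G22A. The 5p arms have seeds that neither the other nor any further miRNA of that table shares. How tags too short to tell the 3p arms apart were assigned is not given in the sources used here.

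Libraries held 18127265 to 19493731 tags in ET1 cells and 18972157 to 20895432 in untreated cells, and known miRNAs made up 22.6% to 25.5% of the ET1 tags against 30.1% to 45.6% of the untreated tags. Fragments of rRNA took 7.12% to 11.0% against 3.22% to 5.63%. Because the part taken by known miRNAs differed between groups, every level depends on the scaling. Levels are counts per 1000000 known miRNA tags (CPM) after TMM scaling, which sets library sizes so that most miRNAs are level between libraries. TMM factors were 1.08 to 1.18 in ET1 and 0.816 to 0.955 in untreated libraries. Of the 6 smooth muscle and myoid markers, 5 were tested, with miR-143-3p and miR-145a-5p the leading ones. miR-143-5p was near 0, with 4, 0 and 2 tags in ET1 and 3, 2 and 0 tags in untreated libraries. miR-1a-3p was also low, with 15, 17 and 7 against 45, 51 and 28 tags. The sum of the 6, mostly from miR-143-3p, was by library size 14101 to 18421 CPM in ET1 libraries against 19703 to 24100 CPM in untreated libraries.

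None of the 4 arms passed the test of ET1 against untreated cells. All 4 had a log2 fold change (ET1 over untreated) below 0, which put the untreated level at 1.66 to 3.11 times the ET1 level. In edgeR's quasi-likelihood test over 616 known miRNAs, 1.79% passed an adjusted p of 0.05 in either direction, 0.487% as lower and 1.3% as higher in ET1. Without adjustment 1 of the 4, miR-132-5p, had p under 0.05 and was lower, against 8.93% of all miRNAs tested that were lower and 18.3% in either direction. Neither DESeq2 nor limma-voom called any of the 4. After TMM scaling 3 of the 4 were lower in each ET1 library than in any untreated library, as were 11.0% of the miRNAs tested. None of the 4 was higher in each ET1 library, against 12.5% of the miRNAs tested. With scaling by library size only, all 4 arms overlapped between the groups, and of the miRNAs tested 5.03% were lower and 20.9% higher without overlap.

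**Figure D1:**
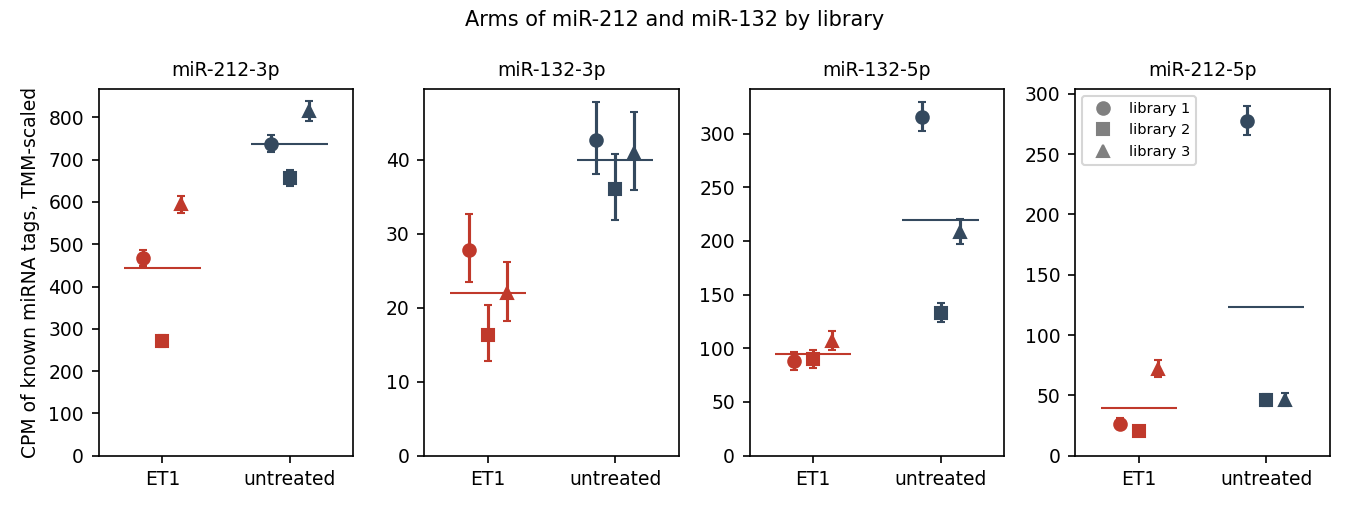
Level of each arm in each library, in TMM-scaled CPM of known miRNA tags, with ET1 at the left and untreated at the right of each panel. Points are libraries with 95% exact Poisson intervals of the count (counting error only), horizontal lines are group means, and each panel has its own axis from 0. Untreated library 1 stands far above the other 5 in miR-212-5p.

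mmu-miR-212-3p was the most abundant of the 4 arms, at rank 90 of the 616 miRNAs tested by mean level. It had 2486, 1284 and 3385 tags in ET1 libraries 1, 2 and 3, and 5228, 4638 and 4857 tags in the untreated libraries. These counts came to 467, 271 and 594 CPM in ET1 cells against 737, 657 and 815 CPM in untreated cells. Every ET1 library lay under the lowest untreated one, with ET1 library 2 the lowest of all and the gap between the groups smaller than the range within the ET1 group. Its log2 fold change was −0.73 (SE 0.38, 95% interval −1.55 to 0.087; edgeR adjusted p = 0.34), from 444 ± 163 CPM in ET1 and 736 ± 79.1 CPM in untreated cells (SD, n = 3 each). Scaled by library size alone its levels were 537, 293 and 701 CPM in ET1 cells, against 644, 536 and 778 CPM in untreated cells. There the groups overlapped, and the log2 fold change was −0.35 (95% interval −1.23 to 0.52). Without ET1 library 2 the TMM value was −0.50.

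mmu-miR-132-3p, which shares the seed of miR-212-3p, was the least abundant of the 4 by mean level, at rank 278. It had 148, 77 and 125 tags in ET1 libraries and 303, 255 and 244 in untreated libraries. The levels were 27.8, 16.3 and 21.9 CPM in ET1 cells, against 42.7, 36.1 and 40.9 CPM in untreated cells. The 3 untreated libraries lay close together, and the 3 ET1 libraries lay below them and further apart. The lowest count, 77 in ET1 library 2, carries a 95% exact Poisson interval of 60.8 to 96.2 tags, which covers counting error only. Its log2 fold change was −0.86 (SE 0.44, 95% interval −1.80 to 0.085; edgeR adjusted p = 0.34). By library size alone it was −0.49 (95% interval −1.44 to 0.47), where ET1 library 1 at 32.0 CPM lay above untreated library 2 at 29.5 CPM.

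Within the shared seed, miR-212-3p supplied nearly all tags, from 94.3% to 96.4% of the pair in every library. Summed, the AACAGUC pair made up 0.0569%, 0.0311% and 0.0727% of the known miRNA tags in ET1 libraries and 0.0682%, 0.0566% and 0.0817% in untreated libraries, ranges that overlap. After TMM scaling the pair had 495, 288 and 616 CPM in ET1 libraries against 779.96, 693 and 856 CPM in untreated libraries, which do not overlap. The split within the pair overlapped between the groups. The log2 ratio of miR-132-3p to miR-212-3p averaged −4.29 ± 0.40 in ET1 and −4.20 ± 0.10 in untreated libraries (SD, n = 3 each), with a difference of −0.090 (two-sided exact permutation p = 1.0). In ET1 library 3 miR-212-3p had 27.0 times the tags of miR-132-3p, and in the other 5 libraries 16.6 to 19.9 times. Without ET1 library 3 the difference was 0.14.

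mmu-miR-132-5p, the other arm of the Mir132 hairpin, outnumbered miR-132-3p in each library. It had 468, 425 and 609 tags in ET1 and 2239, 940 and 1242 tags in untreated libraries, or 87.9, 89.8 and 106.9 CPM against 316, 133 and 208 CPM. The ET1 libraries lay close together, while the untreated ones spread over more than the distance between the groups, with untreated library 1 the highest. Its log2 fold change was −1.21 (SE 0.42, 95% interval −2.11 to −0.31), the largest of the 4 relative to its error, with an unadjusted p of 0.012 and an edgeR adjusted p of 0.12, at rank 65 of 616 by p. The means were 94.9 ± 10.5 CPM in ET1 and 219 ± 91.8 CPM in untreated cells (SD, n = 3 each). Without untreated library 1 the log2 fold change was −0.84 (95% interval −1.90 to 0.21). By library size alone it was −0.85 (95% interval −1.78 to 0.080), and ET1 library 3 at 126 CPM then lay above untreated library 2 at 109 CPM.

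mmu-miR-212-5p, the other arm of the Mir212 hairpin, had its highest level by far in a single untreated library. It had 142, 95 and 411 tags in ET1 and 1970, 325 and 275 tags in untreated libraries, or 26.7, 20.1 and 72.1 CPM against 278, 46.0 and 46.1 CPM. ET1 library 3 lay above untreated libraries 2 and 3, so the groups overlapped, and untreated library 1 alone stood far above the other 5. Its log2 fold change was −1.64 (SE 0.87, 95% interval −3.69 to 0.41; edgeR adjusted p = 0.37). Without untreated library 1 it was −0.22 (95% interval −1.46 to 1.03).

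The order of the arms was miR-212-3p, then miR-132-5p, in all 6 libraries. The low end was less settled: miR-212-5p lay above miR-132-3p in 5 libraries, and in ET1 library 1 the order was turned, at 26.7 and 27.8 CPM, with intervals of the counts that overlap. The arms are 22 or 23 bases long. The hairpins thus had opposite leading arms. miR-132 had 3.15, 5.49 and 4.86 5p tags for each 3p tag in ET1 libraries and 7.38, 3.68 and 5.08 in untreated libraries. miR-212 had 17.4, 13.5 and 8.23 3p tags for each 5p tag in ET1 libraries and 2.65, 14.3 and 17.6 in untreated libraries. Among 141 hairpins with both arms tested the 5p arm led in 48.9%, so neither pattern is rare in these libraries.

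**Figure D2:**
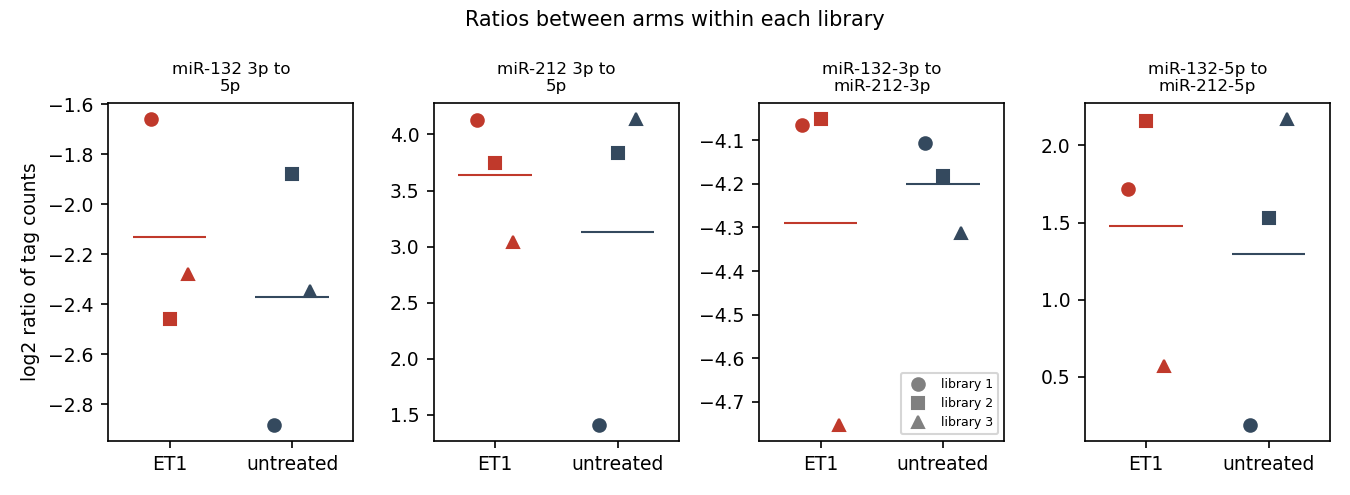
Log2 ratio of tag counts between arms within each library (0.5 added to each count), ET1 left and untreated right, with the group means as lines. From left to right the panels show the 3p to 5p ratio of miR-132, that of miR-212, miR-132-3p to miR-212-3p, and miR-132-5p to miR-212-5p. The groups overlap in all 4, and untreated library 1 is lowest in the first, the second and the fourth.

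Ratios within a library need no scaling, and they did not separate the groups. The log2 ratio of 3p to 5p averaged −2.13 ± 0.42 in ET1 and −2.37 ± 0.50 in untreated libraries for miR-132, a difference of 0.24 (n = 3 each; exact permutation p = 0.5). For miR-212 it averaged 3.64 ± 0.55 in ET1 and 3.13 ± 1.5 in untreated libraries, a difference of 0.51 (n = 3 each; exact permutation p = 0.9). The ratio of miR-132-5p to miR-212-5p averaged 1.48 ± 0.82 and 1.30 ± 1.01, a difference of 0.18 (n = 3 each; exact permutation p = 0.8). All tests of the 4 ratios were two-sided, their adjusted p was 1.0, and 0.1 is the smallest p that 3 libraries against 3 can give. Over the 141 hairpins, the groups did not overlap for 19.1%. Without untreated library 1 the differences were −0.019 for the arms of miR-132, −0.35 for those of miR-212 and −0.37 between the 5p arms.

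Untreated library 1 was thus rich in both 5p arms. Its 3p to 5p log2 ratio lay 0.63 below the 6-library mean for miR-132 (−0.63) and 1.97 below it for miR-212 (−1.97). The median hairpin deviated by −0.029 in that library, so the excess of 5p tags did not extend to the typical hairpin. The 3p arms of the same library, at 737 and 42.7 CPM, lay within or near the range of the other untreated libraries.

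The table has a further row named for the family, the Rfam entry mir-132. It held 1297, 900 and 1630 tags in ET1 libraries and 5191, 2461 and 2764 tags in untreated libraries, more than either 5p arm in every library. Untreated library 1 was the highest, as for both 5p arms. As a part of all tags every ET1 library lay below every untreated one, as for miR-132-5p and unlike miR-212-5p. On that scale 15.7% of the known miRNAs tested were lower without overlap. By library size of known miRNA tags the row overlapped between the groups. There ET1 library 3, with 1630 per 4825429 tags, lay above untreated library 2, with 2461 per 8651018. In a fit over all 3193 small RNA rows that passed the filter, its log2 fold change was −1.59 (SE 0.43; edgeR adjusted p = 0.29). That fit called 0.0% of the rows, and its median for known miRNAs was −0.46, so it sets all miRNAs lower than the fit over miRNAs alone. Which tags fell in this row and not in the mature ones is not given in the sources used here.

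As parts of all tags, which is the scale of the deposited RPM, the arms stood lower still in ET1 cells. miR-212-3p had 137, 66.1 and 174 RPM in ET1 and 250.2, 244 and 235 RPM in untreated libraries. miR-132-3p had 8.16, 3.97 and 6.41 RPM in ET1 and 14.5, 13.4 and 11.8 RPM in untreated libraries. On this scale 3 of the 4 arms were lower without overlap, the exception being miR-212-5p, as were 15.7% of the miRNAs tested, while 8.44% were higher without overlap. The share of known miRNAs in the same ET1 libraries was itself lower, and its part in these values cannot be told apart from a change in the arms.

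**Figure D3:**
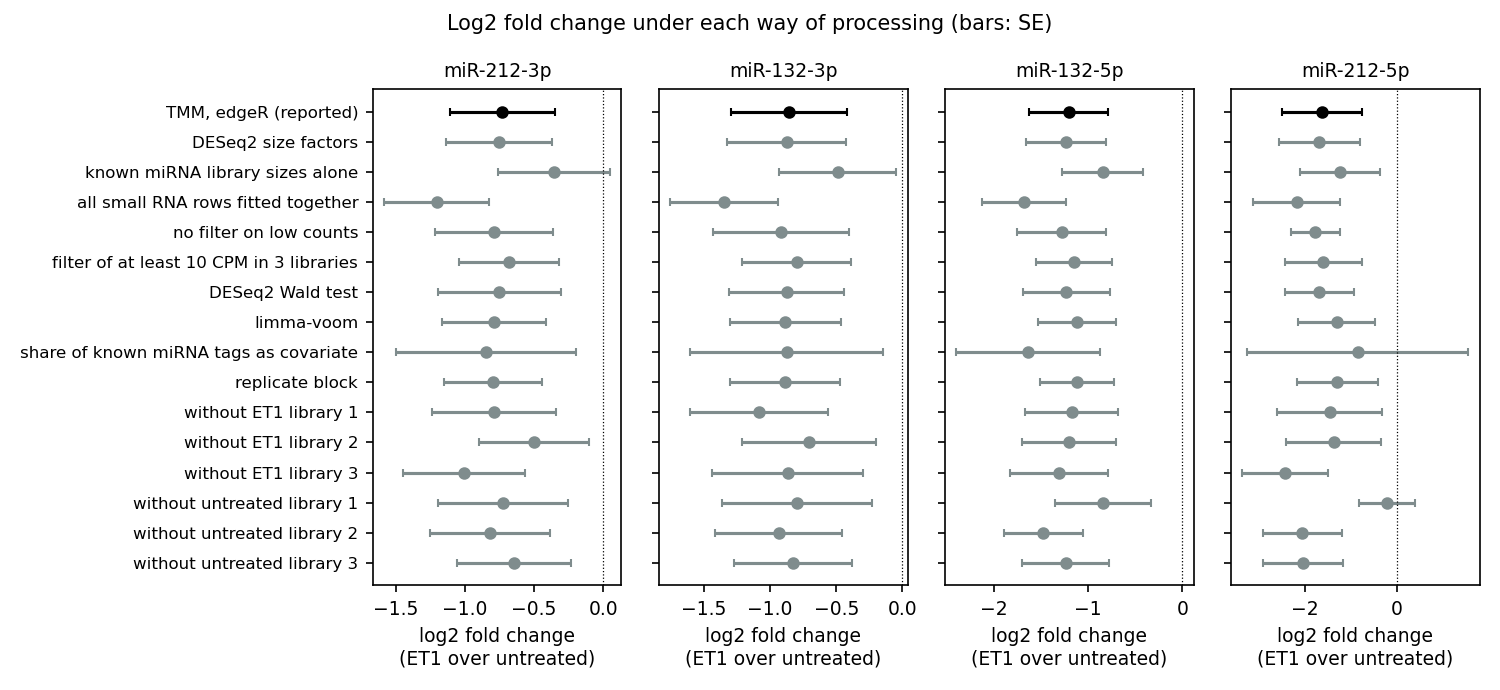
Log2 fold change of each arm (x axis, ET1 over untreated; points with SE bars) under the reported fit at the top and 15 other ways of processing below it. All points lie below 0; those of miR-212-5p reach from −2.43 without ET1 library 3 to −0.22 without untreated library 1, and none has an adjusted p under 0.05.

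Across 15 other ways of processing the log2 fold change stayed below 0 for each of the 4 arms, and none of them passed in any. The lowest adjusted p was 0.0503, for miR-212-5p in edgeR without a filter on low counts. For miR-132-5p the lowest was 0.083, in DESeq2. It ran from −1.20 to −0.35 for miR-212-3p, from −1.35 to −0.49 for miR-132-3p, from −1.68 to −0.84 for miR-132-5p and from −2.43 to −0.22 for miR-212-5p. The end nearest to 0 came from library sizes alone for both 3p arms and from leaving out untreated library 1 for both 5p arms. The upper end of the 95% interval of miR-212-3p was 0.087 after TMM scaling, 0.52 by library size and 0.57 with each library's miRNA share as a covariate. That of miR-132-3p was 0.085, 0.47 and 0.72 in the same fits, so a higher level in ET1 cells lay within the interval of both arms in each of them. The intervals lay wholly below 0 in the fit of all small RNA rows, with upper ends of −0.31 for miR-212-3p and −0.39 for miR-132-3p. For miR-212-3p the same held with the replicate number as a block (−0.038) and without ET1 library 3 (−0.071). In all other fits that gave an interval, the upper end was above 0 for both 3p arms. For miR-132-5p it was above 0 by library size (0.080), with the covariate (0.028) and without untreated library 1 (0.21). In the other fits that gave an interval, that of miR-132-5p was below 0. For miR-212-5p it was below 0 only without a filter on low counts (−0.70) and without ET1 library 3 (−0.29).

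**Figure D4:**
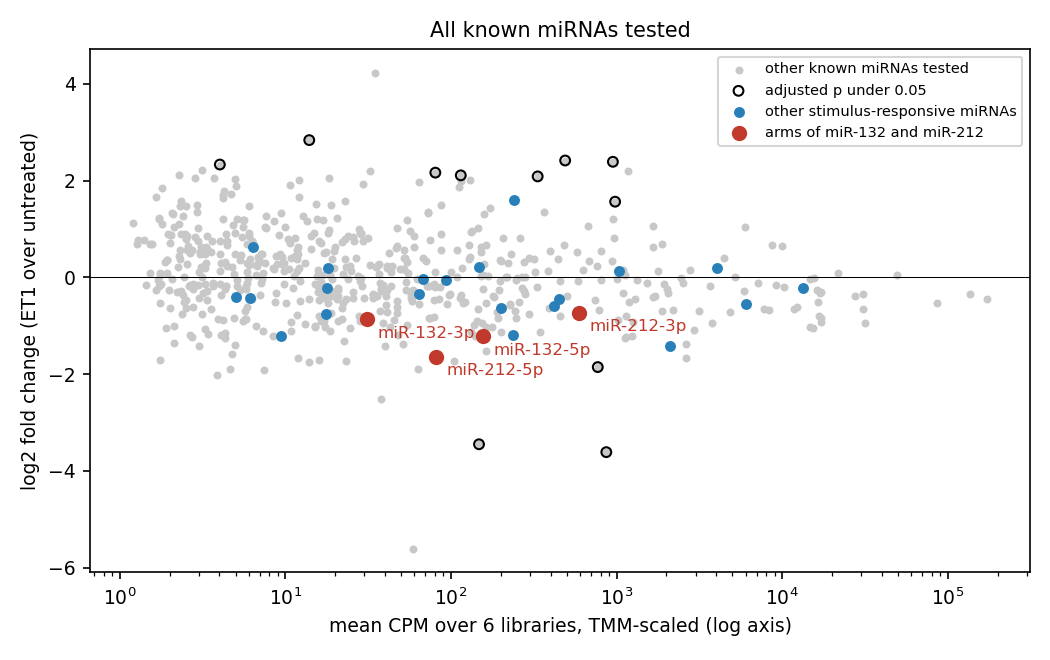
Log2 fold change (ET1 over untreated) against mean level (CPM, log axis) for the 616 known miRNAs tested. Arms of miR-132 and miR-212 are large and named, other stimulus-responsive miRNAs are blue, and rings mark the 11 miRNAs with an adjusted p under 0.05; the 4 arms lie below 0 and none is ringed.

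Set among all miRNAs tested, the 4 values lay in the lower part of the distribution. The share of miRNAs with a lower log2 fold change was 17.0% for miR-212-3p, 13.8% for miR-132-3p, 5.52% for miR-132-5p and 2.60% for miR-212-5p. Their median was −1.03, beside 0.0058 for all 616, of which 49.5% were below 0. The next miRNAs in mean level around miR-212-3p were miR-541-5p (900.4 ± 403 CPM in ET1 and 434 ± 87.4 CPM in untreated cells), miR-411-5p (656 ± 196 and 590.4 ± 121), miR-193a-5p (566 ± 359 and 600.1 ± 91.1) and miR-324-3p (677 ± 240 and 474 ± 157). None of these passed. The only other well-counted miRNA gene within 1000000 bases is Mir22, 289969 bases away on the same strand; Mir6926 and Mir3971 had too few tags to test. Its arms miR-22-3p (23836 ± 3816 CPM in ET1 and 37531 ± 8790 CPM in untreated cells) and miR-22-5p (97.1 ± 17.9 and 130.3 ± 32.2 CPM) had edgeR adjusted p of 0.26 and 0.64.

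The miRNAs most like miR-212-3p across the 6 libraries were picked by Pearson's r of log2 CPM, as a description. They were miR-12182-3p (r = 0.97), miR-652-3p (r = 0.96), miR-195a-3p (r = 0.96), miR-139-5p (r = 0.95) and miR-92a-3p (r = 0.95). All 5 had a log2 fold change below 0 and none passed in the reported fit; miR-12182-3p, at −1.67 (edgeR adjusted p = 0.086), passed in DESeq2 and in edgeR without a filter on low counts (−1.74). The 6 points share the libraries, their TMM factors and the split into 2 groups. Among the members themselves, r with miR-212-3p was 0.89 for miR-132-3p, 0.74 for miR-132-5p and 0.66 for miR-212-5p. After the group means were taken out, the arms of the same side stayed closest, at 0.82 between the 5p arms and 0.72 between the 3p arms. The arms of 1 hairpin reached 0.29 for miR-132 and 0.46 for miR-212. These values also rest on 6 points, and untreated library 1 was the highest for both 5p arms, at 316 CPM for miR-132-5p and 278 CPM for miR-212-5p.

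A list of 26 other arms of miRNAs known to respond to signals was read beside the pair. It holds NF-kB and AP-1 targets such as miR-146a, miR-155, miR-21a and miR-221, the angiotensin-responsive miR-29b and miR-129, the neuronal activity miRNA miR-134, the hypoxia miRNA miR-210 and the clock miRNA miR-219a. Of these, 21 were tested, 15 with a log2 fold change below 0 and 6 above 0, with a median of −0.35. In edgeR none passed in either direction, while 2 lower and 1 higher of the 21 had an unadjusted p under 0.05, beside 8.93% lower and 18.3% in either direction of all miRNAs tested. DESeq2 called 1, miR-134-5p, and limma-voom none. miR-21a-5p, the most abundant and a product of AP-1 signalling, had 12384 ± 1392 CPM in ET1 cells, against 14463 ± 3478 CPM in untreated cells (edgeR adjusted p = 0.74).

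**Figure D5:**
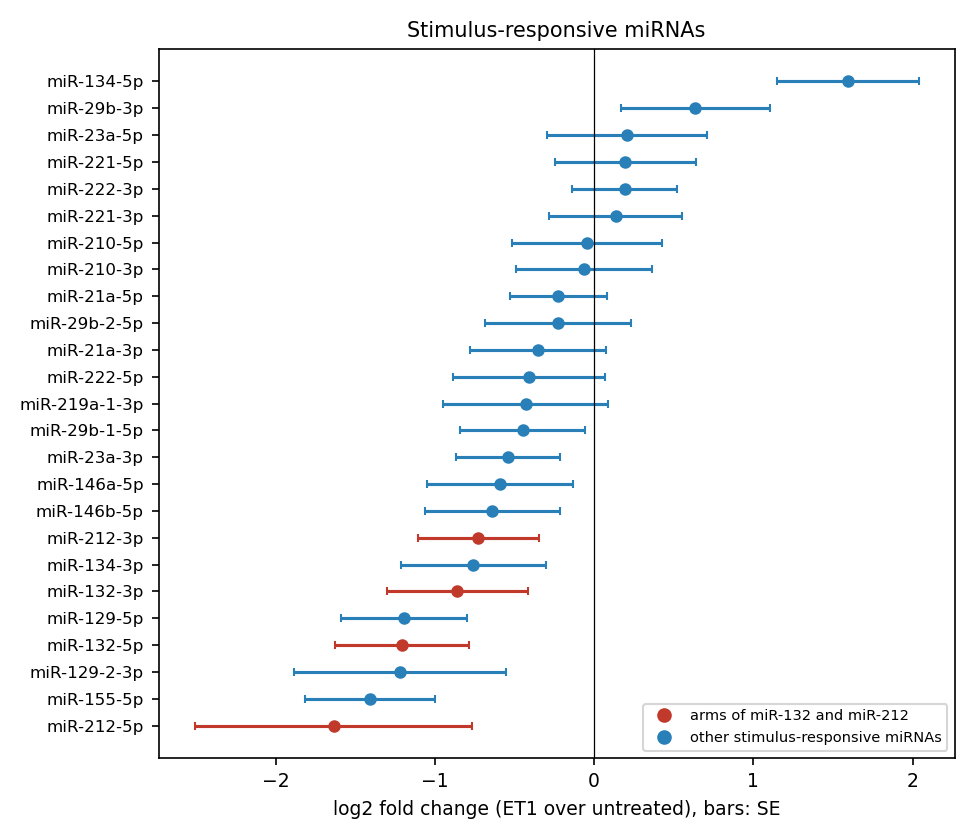
Log2 fold change (ET1 over untreated, x axis, with SE bars) of the 4 arms of miR-132 and miR-212 (red) and the 21 tested arms of other stimulus-responsive miRNAs (blue), ordered from highest to lowest. The red points lie in the lower part, between −1.64 and −0.73, and none of the 25 passed the test.

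At the low end of that list was miR-155-5p, an NF-kB and AP-1 product of inflammatory signals, with 1156 ± 445 CPM in ET1 cells against 3070.04 ± 1264 CPM in untreated cells (log2 fold change −1.41, SE 0.41; edgeR adjusted p = 0.086). Leaving out ET1 library 1 (−1.79) or untreated library 3 (−1.68) brought it past the threshold, while with each library's miRNA share as a covariate it was −0.025. At the high end was miR-134-5p, which restrains dendritic spine growth in neurons, with 362 ± 163 CPM in ET1 cells against 119.9 ± 34.1 CPM in untreated cells (log2 fold change 1.59, SE 0.44; edgeR adjusted p = 0.079). In DESeq2 it was past the threshold (1.57). The other arm of its hairpin, miR-134-3p, went the other way, with 13.1 ± 3.28 CPM in ET1 cells against 22.2 ± 5.94 CPM in untreated cells. Its log2 fold change was −0.76 (SE 0.45; edgeR adjusted p = 0.38). miR-129-5p was chosen after its values were seen, because it is the other lower arm of the list with an unadjusted edgeR p under 0.05. It had 144 ± 23.4 CPM in ET1 cells, against 329 ± 105 CPM in untreated cells (log2 fold change −1.19, SE 0.40; edgeR adjusted p = 0.11). The other tested arms of the angiotensin-responsive miRNAs had log2 fold changes of −1.22 (miR-129-2-3p), −0.45 (miR-29b-1-5p), −0.23 (miR-29b-2-5p) and 0.64 (miR-29b-3p). None of these passed.

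Markers of other cells were read beside these levels, since neurons, endothelial cells and leukocytes can also hold miR-132 and miR-212. The sums are CPM by library size. The 6 neuronal markers summed to 114 to 235 CPM in ET1 and 160.3 to 271 CPM in untreated libraries, mostly from miR-138-5p and miR-128-3p. Of the defining ones, miR-137-3p had 0 tags in all 6 libraries and miR-124-3p had 14, 49 and 50 tags in ET1 and 20, 10 and 14 in untreated libraries. The 2 endothelial markers summed to 131 to 192 CPM in ET1 and 1057 to 1646 CPM in untreated libraries, nearly all from miR-126a-3p. The 4 leukocyte markers summed to 39.3 to 46.7 CPM in ET1 and 193 to 283 CPM in untreated libraries, mostly from miR-150-5p. The defining leukocyte marker miR-142a-3p was near 0, with 10, 14 and 8 tags in ET1 and 0, 5 and 6 tags in untreated libraries, as was miR-142a-5p, with 7, 3 and 4 against 0, 5 and 3 tags. miR-223-3p had 84, 48 and 38 tags in ET1 and 30, 125 and 28 tags in untreated libraries, so that the gap between the leukocyte sums came from miR-150-5p. The 6 epithelial and Sertoli markers summed to 744 to 1991 CPM in ET1 and 891 to 1263 CPM in untreated libraries, mostly from miR-202-3p. The 4 germ cell markers, nearly all from miR-470-5p, summed to 40180 to 81355 CPM in ET1 and 30273 to 59045 CPM in untreated libraries. Of these, miR-449a-5p had 369, 547 and 2069 tags in ET1 and 398, 333 and 209 in untreated libraries. By library size it was higher in each ET1 library than in any untreated one, as were 20.9% of the miRNAs tested. The other germ cell markers overlapped between the groups on that scale. The endothelial, leukocyte and smooth muscle and myoid sums were thus lower in each ET1 library than in any untreated one. The smooth muscle and myoid sum came mostly from miR-143-3p. Its other leading marker, miR-145a-5p, had 14284, 11852 and 11990 tags in ET1 and 15004, 22087 and 15567 in untreated libraries. By library size miR-145a-5p was not lower in each ET1 library, and the groups overlapped. The part of these sums in the levels of miR-132 and miR-212 was not tested. In bulk libraries fewer cells of a type and less RNA per cell cannot be told apart.

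The authors' deposited table, which compares counts summed over the 3 libraries of a group, lists all 4 arms as lower in ET1 cells. Its log2 ratios are −0.34 for miR-212-3p, −0.50 for miR-132-3p, −0.86 for miR-132-5p and −1.29 for miR-212-5p in the authors' deposited table. The unscaled summed counts give −1.04, −1.20, −1.56 and −1.99 for the same arms in that order. The deposited ratios are thus on another scale, which is not given in the sources used here. In the authors' deposited table the q-values of the 4 run from 2.6e-117 for miR-212-5p to 8.3e-09 for miR-132-3p. Of the 1147 known miRNAs with a q-value in the authors' deposited table, 67.5% have q under 0.05 in either direction and 19.5% as lower. Sums over libraries hold no term for the spread between them, and for miR-212-5p the untreated sum of 2570 tags takes 1970 from untreated library 1.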

How the data were processed

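Small RNA libraries were made by BGI protocols from total RNA, per the labels' protocols. Bowtie2 and mm10 are named per the submitters' processing notes; databases, mismatches and the treatment of tags with several matches are not given in the sources used here. The authors deposited tag counts per row and library (61628 rows), with an RPM value headed TPM. Their comparison table, named for DEGseq, gives summed counts, mean RPM, a log2 ratio, and a p-value and q-value per miRNA, per the file headers; these were only copied.

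Counts of the 1573 known miRNA rows were fitted with edgeR 4.0.16 in R 4.3.3: default expression filter by group, TMM scaling, a robust quasi-likelihood test, two-sided, of a model holding only the group, Benjamini-Hochberg adjustment over 616 miRNAs, threshold 0.05. The code was tested on simulated data. Alternatives used DESeq2 1.42.0, limma 3.58.1 and those in the closing section. Within-library log2 ratios had 0.5 added and were compared by exact permutation (scipy 1.17.1). Intervals are at 95%; no counts were at 0 for the 4 arms. Tags carry no molecular identifiers, so Poisson intervals cover counting error only. Depth was 18127265 to 20895432 tags.

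Named beyond the 4 arms were the 2 miRNAs next above and the 2 next below miR-212-3p in level, the 5 most like it, tested miRNAs of genes within 1000000 bases, and from the stimulus-responsive list the most abundant, those that pass and both extremes. From that list miR-134-3p, miR-129-5p and the other tested arms of miR-129 and miR-29b were added after their values were seen. Members and lists were chosen with earlier results of these data known.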

Additional observations from a re-analysis of the deposited data

How the results depend on the processing

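All 4 arms kept a log2 fold change below 0 and an adjusted p over 0.05 under each of 15 alternatives; the range without 1 library was −1.08 to −0.71 for miR-132-3p, −1.48 to −0.84 for miR-132-5p, −1.005 to −0.50 for miR-212-3p and −2.43 to −0.22 for miR-212-5p. The count of calls moved too. From 8 higher and 3 lower it became 38 higher with library sizes alone (median of all miRNAs 0.37), 22 and 15 without a filter, 24 and 15 in DESeq2, and 0 and 0 in the edgeR fit of all small RNA rows (17 and 99 by unadjusted p under 0.05; not refitted in DESeq2) or with each library's miRNA share as a covariate (12 and 27). Without 1 library it ran from 0 to 21 higher and from 2 to 10 lower: 21 and 9 without ET1 library 1, 4 and 5 without ET1 library 2, 0 and 2 without ET1 library 3, 2 and 3 without untreated library 2, and 15 and 10 without untreated library 3. The cause was not tested. In the stimulus-responsive list 1 higher (miR-134-5p) passed with library sizes alone, without a filter and in DESeq2, and 1 lower (miR-155-5p) without a filter; without 1 library 0 to 1 lower passed.

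The replicate block gave −0.89 for miR-132-3p, −1.12 for miR-132-5p, −0.80 for miR-212-3p and −1.29 for miR-212-5p, with 14 calls higher and 7 lower. After the group mean of each miRNA was taken out of log2 CPM, same-numbered libraries correlated at 0.28, 0.060 and 0.25, each highest with its own number. Deviations within a group sum to 0, so these correlations are not independent. They are a hint from the data, not the design, and the numbers were not taken as pairs.

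Values with a changed sign were, without 1 library, −0.019 to 0.48 (miR-132 arms), −0.35 to 1.02 (miR-212 arms), −0.21 to 0.14 (3p arms) and −0.37 to 0.64 (5p arms), −0.026 to 0.35 (miR-411-5p) and −0.73 to 0.22 (miR-193a-5p). With all rows together miR-411-5p was at −0.36; with library sizes alone miR-193a-5p was at 0.30 and miR-21a-5p at 0.15; with the covariate miR-324-3p was at −0.16, miR-22-5p at 0.22, miR-22-3p at 0.046 and miR-21a-5p at 0.12. The 4 arms had 77 to 5228 tags per arm and library, and counting error was not compared with the spread between libraries.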
